A study of Mus musculus with 9 samples.

Results

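The mitochondrial ribosomal protein genes of the mouse are the nuclear genes that carry the symbols Mrpl or Mrps followed by a number. By that rule, with pseudogenes left out, 76 of the 22526 genes in the deposited table were members, 48 named Mrpl and 28 named Mrps. Their messenger RNA was measured in 9 libraries of oocytes at metaphase II, the stage at which the ovulated egg waits for fertilisation. All mice were of the outbred ICR strain. There were 3 libraries from a group given nicotinamide mononucleotide (NMN), a precursor of the coenzyme NAD, 3 from an aged group and 3 from a young group. Per the labels' protocols, RNA was copied with Smart-seq2, in which an oligo(dT) primer on the poly(A) tail yields full-length cDNA that is then amplified. The labels name the groups as NMN supplementation, aged and young. They give no ages, no dose or route of NMN and no number of oocytes or mice per library, and the age of the mice that received NMN is not stated either.

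Mitochondria carry their own ribosome, which translates the few membrane proteins of the respiratory chain that are encoded in mitochondrial DNA. Its ribosomal RNAs are made inside the organelle, whereas all of its proteins are encoded in the nucleus, made in the cytosol and imported. The large subunit holds the site where peptide bonds form and the small subunit holds the site where codons are read. Many of the proteins descend from proteins of the bacterial ribosome and the others are specific to mitochondria. The symbol does not always tell the subunit, since the products of Mrps18a and Mrps30 sit in the large subunit. Mrps36 was named as a small subunit protein and is now known as a component of the ketoglutarate dehydrogenase complex. On this basis 50 members belonged to the large subunit, 25 to the small subunit and Mrps36 to neither. By ancestry, 48 members had a bacterial homologue, and the 28 others, Mrps36 among them, were grouped as mitochondria-specific.

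Promoters of these genes are known for sites of NRF1, ETS family proteins and YY1, factors that act on many nuclear genes for mitochondrial proteins. RefSeq windows of 250 bases before to 50 bases after the transcription start (GRCm38.p6) were at hand for 68 members. The NRF1 letters GCGCATGCGC, a half-site and its reverse complement that read the same on both strands, were in the windows of 3 members (4.41%), against 1.07% of the 27025 genes with a window. The ETS letters CCGGAAG were found on either strand in 25 members (36.8%), against 9.93% of all genes with a window. The YY1 letters AAGATGGC were found on either strand in 12 members (17.6%), against 3.19% of all genes with a window. In no member did the ETS and YY1 letters overlap. Such letters describe the window and do not show that a factor binds there.

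The 3 members with the NRF1 letters were Mrpl9, Mrpl39 and Mrpl32. Between aged and young oocytes, Mrpl9 and Mrpl39 had the smallest p-values of all members, with differences in opposite directions. Mrpl32 had a log2 difference of 0.28 ± 0.24 (SE, adjusted p = 0.574 by limma), with overlapping aged and young libraries. The 250 bases before the start of all 3 are shown because of the p-values of Mrpl9 and Mrpl39. Each is given 5′ to 3′ on the strand of the gene, and the capitals mark the NRF1 letters, which begin 28 bases before the start in Mrpl9, 125 in Mrpl39 and 87 in Mrpl32. The windows lie at chr3:94443086-94443335 on the plus strand for Mrpl9, at chr16:84735245-84735494 on the minus strand for Mrpl39 and at chr13:14613038-14613287 on the minus strand for Mrpl32.
Mrpl9: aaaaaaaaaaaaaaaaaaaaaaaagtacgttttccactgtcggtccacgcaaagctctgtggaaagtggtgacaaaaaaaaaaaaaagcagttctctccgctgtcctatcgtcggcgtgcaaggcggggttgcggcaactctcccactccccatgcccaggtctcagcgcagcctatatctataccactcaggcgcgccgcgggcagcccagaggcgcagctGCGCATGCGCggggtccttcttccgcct
Mrpl39: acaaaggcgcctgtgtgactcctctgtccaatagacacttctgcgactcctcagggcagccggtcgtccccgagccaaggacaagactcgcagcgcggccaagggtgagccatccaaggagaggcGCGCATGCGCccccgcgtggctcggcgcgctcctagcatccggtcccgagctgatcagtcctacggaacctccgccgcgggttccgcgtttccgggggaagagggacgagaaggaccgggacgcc
Mrpl32: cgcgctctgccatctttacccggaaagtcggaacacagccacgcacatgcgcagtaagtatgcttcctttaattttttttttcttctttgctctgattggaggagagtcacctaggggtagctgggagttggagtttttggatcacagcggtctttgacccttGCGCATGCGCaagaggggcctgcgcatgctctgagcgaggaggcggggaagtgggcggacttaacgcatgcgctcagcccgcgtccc

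Values are FPKM as deposited by the authors, that is, fragments relative to transcript length and library size. Each library held 16.3 M to 19.3 M reads (M, mega), as estimated from the step between low values, so 3 reads on a transcript of 1 kb correspond to 0.156 to 0.184 FPKM. That floor covers counting error only. Markers of the oocyte summed to 12138 to 18602 FPKM per library. Aged replicate 2 stood apart from the other libraries. Of 15 genes that mark the cumulus and granulosa cells around the oocyte, 1 was at 0 in aged replicate 2 and 6 to 9 were at 0 in each other library. The 15 genes summed to 30.2 FPKM in aged replicate 2 and to 6.48 to 11.1 FPKM in the other 8 libraries. Ptx3, Inha, Fst and Tnfaip6 were listed at 6.37, 3.17, 2.31 and 1.08 FPKM in aged replicate 2 and at 0 in the other 8 libraries. The defining marker Foxl2 was listed at 0.0943 FPKM in aged replicate 2, under the floor for 1 kb, and at 0 in the other 8 libraries. Cyp19a1, Kitl and Lhcgr were not highest in aged replicate 2, at 3.03, 0.759 and 0 FPKM, and for Cyp19a1 it was the lowest library. Aged replicate 2 also held the highest value of 31 of the 53 members that were tested (58.5%), against 27.1% of all tested genes. Whether the follicle cell transcripts have a part in the members' values there was not tested. Values without this library are given where it moves a printed difference of the members or of their sums by over 1.5 times. In each library, fewer contributing cells and less RNA per cell cannot be told apart.

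The listed mean levels of the members spanned more than 3 orders of magnitude, and most of their summed RNA came from a few genes. The lowest of these means lay under the floor of 3 reads on 1 kb, where expression cannot be told from none. On the per-length FPKM scale, the mean level over the 9 libraries ran between 0.0147 FPKM (Mrpl33) and 43.6 FPKM (Mrpl10), with a median of 2.14 FPKM over the 76 members and 0.359 FPKM over all genes. A mean of at least 1 FPKM was reached by 52 members (68.4%), against 38.7% of all genes. The 4 highest members, Mrpl10, Mrpl18, Mrpl2 and Mrpl44, held 31.3% of the members' summed mean level. The highest 18 held 77.8% of it. Small subunit genes had a median level of 3.28 FPKM and large subunit genes one of 1.71 FPKM. Genes with a bacterial homologue had a median level of 3.04 FPKM and mitochondria-specific genes one of 1.60 FPKM.

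**Figure D1:**
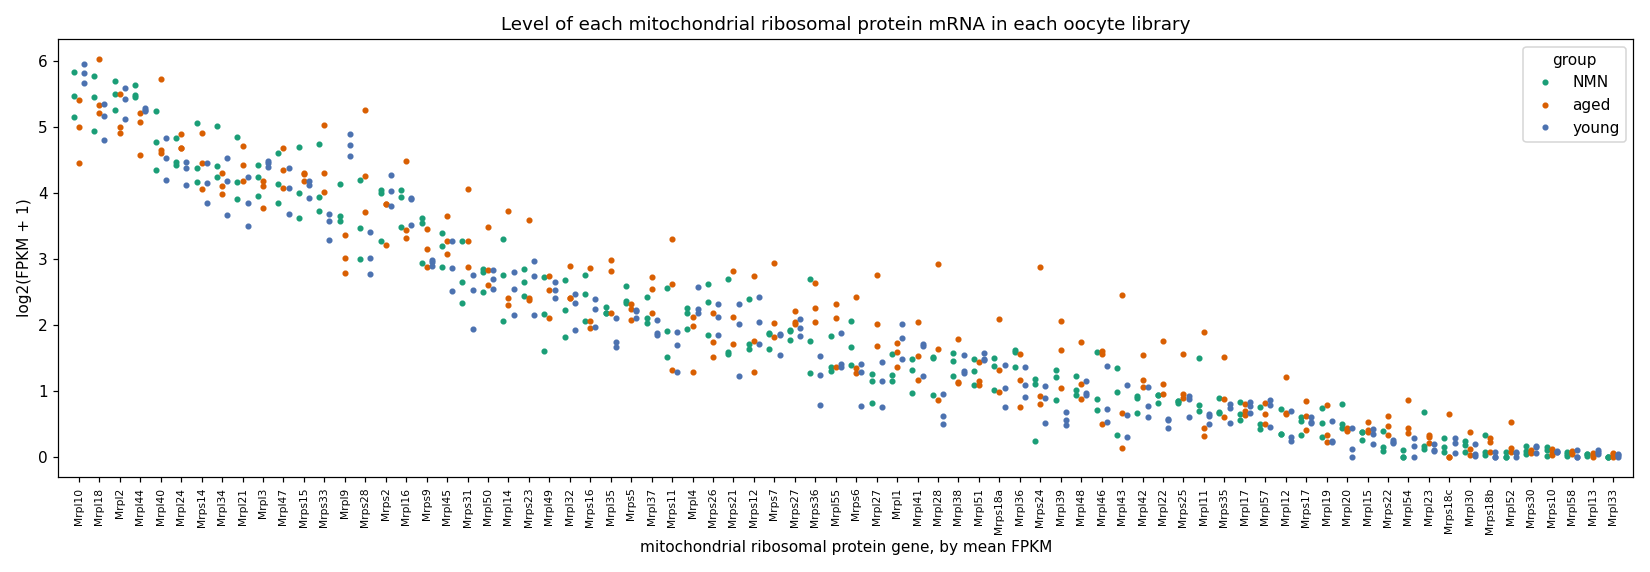
Level of each of the 76 members in each library, as log2(FPKM + 1) on the vertical axis, with genes in order of mean FPKM on the horizontal axis. Each point is 1 library (green NMN, orange aged, blue young). Levels fall steadily from Mrpl10, at a mean of 43.6 FPKM, to Mrpl33, at 0.0147 FPKM, and the highest orange point of many genes is aged replicate 2.

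The most abundant members encode proteins of the large subunit. Mrpl10, whose bacterial homologue anchors the stalk that recruits translation factors, had 43.1, 34.5 and 55.9 FPKM in the NMN libraries, 41.6, 21.0 and 30.9 FPKM in the aged libraries and 49.6, 55.1 and 60.9 FPKM in the young libraries, in the order of replicates 1 to 3 here and throughout. All 3 aged libraries were below all 3 young libraries, and the NMN libraries overlapped both. Mrpl18, a homologue of bacterial L18, had 53.9, 29.6 and 42.8 FPKM in the NMN libraries, 39.4, 64.4 and 36.2 FPKM in the aged libraries and 39.9, 34.9 and 27.0 FPKM in the young libraries. Mrpl2, whose bacterial homologue is near the peptidyl transferase centre, had 50.9, 37.4 and 44.2 FPKM in the NMN libraries, 28.9, 44.1 and 31.1 FPKM in the aged libraries and 47.2, 33.9 and 42.1 FPKM in the young libraries. The 3 groups of Mrpl18 overlapped one another, as did those of Mrpl2. Mrpl44, a mitochondria-specific protein with a ribonuclease III-like fold in which mutations cause cardiomyopathy in humans, had 43.7, 48.7 and 42.6 FPKM in the NMN libraries, 32.8, 22.7 and 36.0 FPKM in the aged libraries and 37.1, 38.1 and 36.8 FPKM in the young libraries. Its 3 NMN libraries lay above the 6 others, and its aged libraries lay below the young ones.

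The next members in order of level were Mrpl40, a mitochondria-specific protein of the large subunit, and Mrpl24, a homologue of bacterial L24. Mrpl40 had 36.7, 19.3 and 26.3 FPKM in the NMN libraries, 24.1, 51.8 and 23.4 FPKM in the aged libraries and 27.6, 22.1 and 17.4 FPKM in the young libraries. Mrpl24 had 27.6, 21.1 and 20.5 FPKM in the NMN libraries, 24.7, 28.8 and 24.6 FPKM in the aged libraries and 19.8, 21.2 and 16.4 FPKM in the young libraries. The 3 groups of Mrpl40 overlapped, with aged replicate 2 as the highest library, whereas all aged values of Mrpl24 were above all young values. The mean levels of Mrpl10, Mrpl18, Mrpl2 and Mrpl44 were 43.6, 40.9, 40.0 and 37.6 FPKM, and their ranges over the libraries overlapped, so the order among these neighbours is not larger than their spread.

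Of the small subunit genes known for their roles, 4 had mean levels of 2.98 to 13.4 FPKM. Mrps2, whose bacterial homologue sits between the head and the body of the small subunit, had 8.66, 14.9 and 15.5 FPKM in the NMN libraries, 13.2, 8.27 and 13.3 FPKM in the aged libraries and 13, 18.4 and 15.4 FPKM in the young libraries. Mrps16, mutated in a human mitochondrial disease, had 5.79, 3.18 and 4.52 FPKM in the NMN libraries, 3.17, 6.24 and 2.88 FPKM in the aged libraries and 4.24, 2.92 and 3.74 FPKM in the young libraries. Mrps12, which sits at the decoding centre, had 4.23, 2.11 and 2.27 FPKM in the NMN libraries, 2.39, 5.67 and 1.44 FPKM in the aged libraries and 4.37, 2.27 and 3.15 FPKM in the young libraries. All groups of these 3 genes overlapped one another. Mrps7, a ribosomal RNA-binding protein, had 2.67, 2.12 and 2.63 FPKM in the NMN libraries, 2.54, 6.64 and 3.07 FPKM in the aged libraries and 2.60, 1.91 and 2.63 FPKM in the young libraries, with aged replicate 2 as the single high library.

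Other members with known roles were low, some of them near the detection limit. The 3 relatives of bacterial S18 had mean levels of 1.51 FPKM for Mrps18a (large subunit), 0.154 FPKM for Mrps18c and 0.0944 FPKM for Mrps18b (both small subunit). Mrpl11, at the base of the factor-binding stalk, had 1.84, 0.724 and 0.630 FPKM in the NMN libraries, 0.361, 2.73 and 0.25 FPKM in the aged libraries and 0.540, 0.579 and 0.415 FPKM in the young libraries. Mrpl12, the stalk protein itself, had 0.660, 0.279 and 0.276 FPKM in the NMN libraries, 0.565, 1.32 and 0.588 FPKM in the aged libraries and 0.625, 0.188 and 0.237 FPKM in the young libraries. In both genes aged replicate 2 was the highest library and the groups overlapped. Mrps22, a mitochondria-specific protein that is also mutated in human disease, was listed at 0.0606 to 0.539 FPKM over the 9 libraries. Mrpl58, a peptidyl-tRNA hydrolase that releases stalled ribosomes, was listed at 0 to 0.0779 FPKM. Mrps30, in the large subunit, was listed at 0.0321 to 0.127 FPKM. Of the 76 members, 7 had a mean under 0.1 FPKM (9.21%, against 35.2% of all genes) and 8 were listed at 0 in at least 1 library.

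Level was only weakly related to transcript length. Across members, mean level and the length of the longest annotated transcript had a Spearman rho of −0.213 (n = 76 genes that share the same libraries), against 0.180 across all genes. The median level was 2.27 FPKM for the 33 members with transcripts under 1500 nt and 1.98 FPKM for the 43 others.

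Differences between groups were tested for the 53 members that reached 1 FPKM in 3 or more libraries, 34 of the large subunit, 18 of the small subunit and Mrps36. Of these, 40 reached 1 FPKM in every library and 13 did not. The 23 members below that limit, 16 of the large and 7 of the small subunit, had values of 0 to 2.73 FPKM and were not tested. Among them, Mrpl22 had 0.909, 0.764 and 0.925 FPKM in the NMN libraries, 0.941, 2.38 and 1.16 FPKM in the aged libraries and 0.488, 0.352 and 0.477 FPKM in the young libraries, so that its aged libraries lay above its young ones. The aged libraries also lay above the young ones in Mrps22, Mrpl54, Mrpl23, Mrps18b and Mrpl52, whose young values were near or under the floor for 1 kb. In no untested member did all aged values lie below all young values. The share of such patterns among all genes below the filter was not computed. Log2 differences refer to log2(FPKM + 1) and so understate the changes of low genes. Adjusted p-values come from limma and were corrected by the Benjamini-Hochberg procedure across the whole table of 9168 tested genes. The labels do not say whether libraries of a group came from separate mice, so the p-values measure the spread between libraries, which may be technical.

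Mrpl9 was lower in aged than in young oocytes, and it was the 1 member of 53 that passed at an adjusted p under 0.05. Mrpl9 is the mitochondrial relative of bacterial L9, a protein of the large subunit. It had 11.5, 10.9 and 16.6 FPKM in the NMN libraries, 7.09, 5.91 and 9.28 FPKM in the aged libraries and 22.7, 28.8 and 25.3 FPKM in the young libraries. The 3 groups did not overlap, with aged lowest, NMN between and young highest. Its means were 13 ± 3.13 FPKM in NMN oocytes, 7.43 ± 1.71 FPKM in aged oocytes and 25.6 ± 3.09 FPKM in young oocytes (SD, n = 3 each). The difference between aged and young oocytes was −1.73 ± 0.24 (SE) on the log2 scale, with an adjusted p of 0.00769 by limma. Across all tested genes, 2.18% passed between aged and young oocytes (200 of 9168), 84 of them lower (0.916%) and 116 higher (1.27%) in aged oocytes. Leaving out young replicate 2 or young replicate 3 brought the adjusted p by limma to 0.0515 or 0.0516, just past the threshold, with the difference at −1.64 and −1.72. The exons of Mrpl9 overlap those of Oaz3 on the opposite strand, which was listed at 0 to 0.185 FPKM.

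The other 52 tested members did not pass between aged and young oocytes. Among all 53, 36 had a positive difference (67.9%), against 44.8% of all tested genes, and the median difference was 0.26, against −0.05 over all tested genes. Without aged replicate 2, 32 of 52 had a positive difference and the median was 0.11. All aged values were above all young values in 10 of 53 members (18.9%), against 12.6% of all tested genes. All aged values were below all young values in 6 of 53 members (11.3%), against 11.2% of all tested genes. The unadjusted p was under 0.05 in 13 of 53 members (24.5%), against 18.3% of all tested genes.

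**Figure D2:**
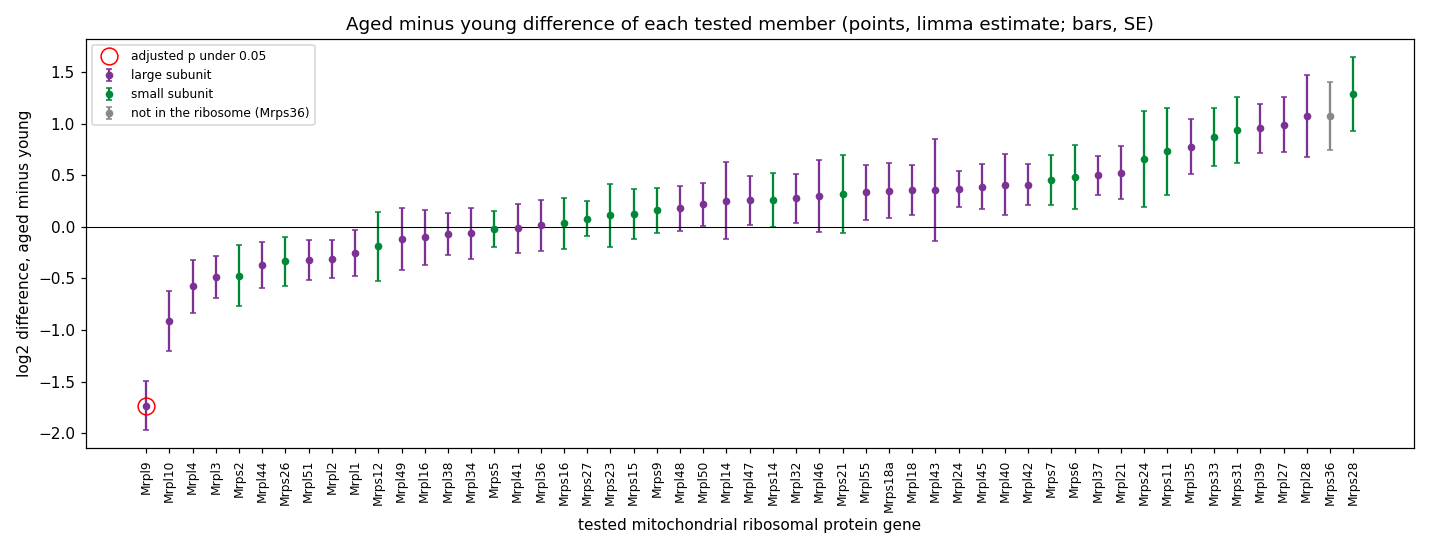
Difference between aged and young oocytes for each of the 53 tested members, as the log2 difference, aged minus young, on the vertical axis; points are limma estimates and bars their SE, coloured by subunit, and the red ring marks an adjusted p under 0.05. Mrpl9 stands alone at −1.73, and Mrps28 is at the other end at 1.28.

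The 6 members whose aged libraries lay below all young libraries were Mrpl9, Mrpl10, Mrpl44, Mrpl3, Mrpl4 and Mrpl51. All 6 encode large subunit proteins, 6 of 34 tested (17.6%) against 0 of 18 of the small subunit, where 11.2% of all tested genes did the same, and the contrast between the subunits was not tested. For Mrpl10 the difference was −0.91 ± 0.29 (SE, adjusted p = 0.140 by limma), and −0.60 without aged replicate 2. Mrpl3, whose bacterial homologue reaches towards the peptidyl transferase centre, had 17.9, 14.4 and 20.4 FPKM in the NMN libraries, 17.2, 12.6 and 16.2 FPKM in the aged libraries and 20.8, 21.3 and 20.1 FPKM in the young libraries. The young values of Mrpl3 were close together and above the aged ones, and the NMN values spanned the gap. The difference of Mrpl3 was −0.48 ± 0.21 (SE, adjusted p = 0.244 by limma), that of Mrpl44 −0.37 ± 0.23 (adjusted p = 0.420), that of Mrpl4 −0.58 ± 0.26 (adjusted p = 0.270) and that of Mrpl51 −0.32 ± 0.19 (adjusted p = 0.407). Aged replicate 2 was the lowest of the aged libraries in these 4 genes. Without it the difference was −0.29 for Mrpl3, −0.11 for Mrpl44, −0.27 for Mrpl4 and −0.21 for Mrpl51.

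The 10 members whose aged libraries lay above all young libraries came from both subunits. Mrpl24, Mrpl27, Mrpl35, Mrpl37 and Mrpl39 belong to the large subunit, Mrps15, Mrps28, Mrps31 and Mrps33 to the small subunit, and Mrps36 to neither. Mrps28, a small subunit protein related to bacterial S1, had 17.2, 7.04 and 10.1 FPKM in the NMN libraries, 12.2, 37.2 and 18 FPKM in the aged libraries and 9.62, 7.05 and 5.84 FPKM in the young libraries. Aged replicate 2 was the highest library of Mrps28 and the other aged libraries were nearer to the young ones. Mrps28 has 1 annotated transcript of 783 nt, and its values correspond to 227, 103 and 131 reads in the NMN libraries, 165, 474 and 235 reads in the aged libraries and 126, 96 and 88 reads in the young libraries. The difference of Mrps28 between aged and young oocytes was 1.28 ± 0.36 (SE, adjusted p = 0.103 by limma), and 0.93 (adjusted p = 0.170) without aged replicate 2.

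Mrpl39, a mitochondria-specific protein of the large subunit related to threonyl-tRNA synthetase, had 1.5, 0.824 and 1.31 FPKM in the NMN libraries, 1.07, 3.15 and 2.06 FPKM in the aged libraries and 0.401, 0.613 and 0.472 FPKM in the young libraries. Both the NMN and the aged libraries lay above the young libraries, which were all under the 1 FPKM of the filter. The difference between aged and young oocytes was 0.96 ± 0.24 (SE, adjusted p = 0.0716 by limma), and 0.76 (adjusted p = 0.126) without aged replicate 2, its highest library. When any 1 library was left out, the adjusted p by limma was 0.0390 to 0.224, and it was under 0.05 only without aged replicate 1. Mrpl27, whose bacterial homologue has its tail in the peptidyl transferase centre, had 1.39, 0.760 and 1.23 FPKM in the NMN libraries, 3.05, 5.74 and 2.19 FPKM in the aged libraries and 1.70, 1.23 and 0.686 FPKM in the young libraries. Its aged libraries were above the 6 others, and its difference between aged and young oocytes was 0.99 ± 0.27 (SE, adjusted p = 0.0908 by limma). Eme1 overlaps Mrpl27 on the opposite strand, and its difference between aged and young oocytes was −1.09 (adjusted p = 0.0930 by limma).

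Mrps36 had 5.51, 1.43 and 2.37 FPKM in the NMN libraries, 3.13, 5.21 and 3.77 FPKM in the aged libraries and 1.36, 1.90 and 0.734 FPKM in the young libraries. Its aged values were above its young values and NMN replicate 1 was the highest library. The difference of Mrps36 between aged and young oocytes was 1.08 ± 0.33 (SE, adjusted p = 0.130 by limma). Mrpl35, a homologue of bacterial L35, had 3.55, 3.53 and 3.83 FPKM in the NMN libraries, 6.93, 3.52 and 6.03 FPKM in the aged libraries and 2.18, 3.29 and 2.34 FPKM in the young libraries. Here aged replicate 2 was the lowest aged library, and all young values were below the others. Its difference between aged and young oocytes was 0.78 ± 0.26 (SE, adjusted p = 0.160 by limma) with all libraries and 1.07 (adjusted p = 0.0297) without aged replicate 2. Mrps33, a mitochondria-specific protein of the small subunit, had 25.6, 12.2 and 14.3 FPKM in the NMN libraries, 18.8, 31.6 and 15.2 FPKM in the aged libraries and 11, 11.8 and 8.79 FPKM in the young libraries. All young values were below the 6 others, and the difference between aged and young oocytes was 0.87 ± 0.28 (SE, adjusted p = 0.149 by limma).

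**Figure D3:**
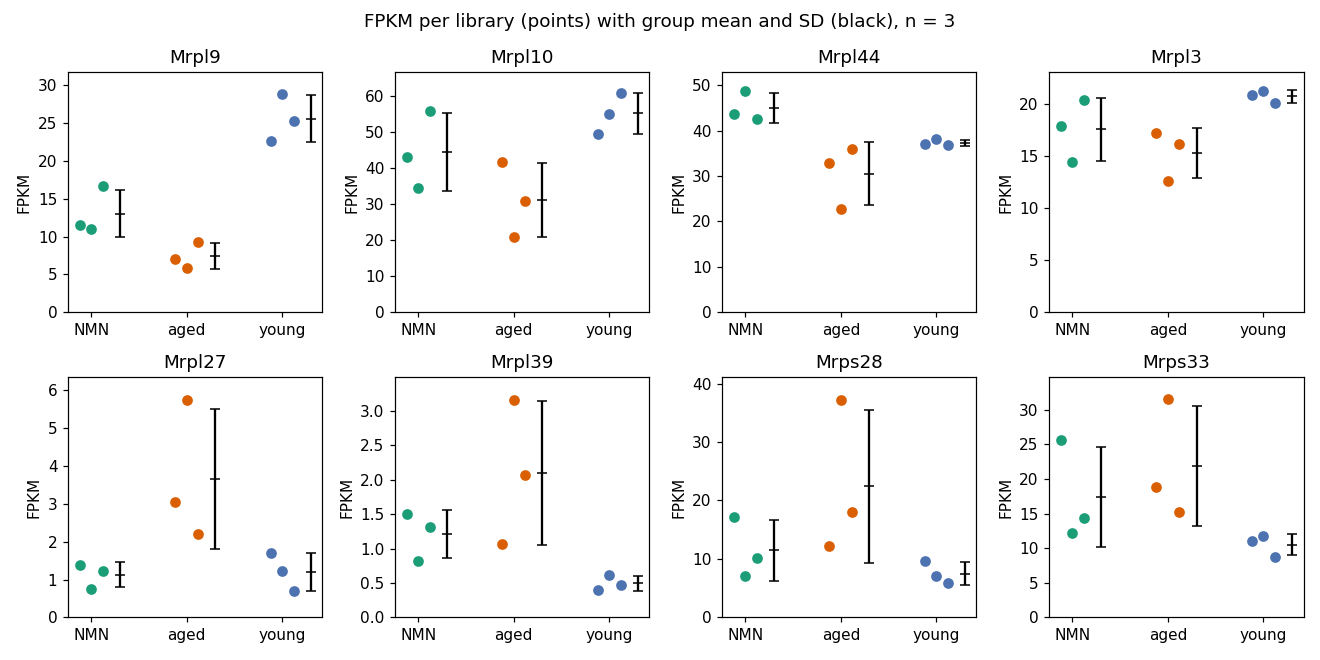
FPKM per library (points) with group mean and SD (black, n = 3) for 8 members, with the NMN, aged and young groups from left to right on the horizontal axis and FPKM from 0 on the vertical axis. Mrpl9 separates the 3 groups, with means of 13 ± 3.13 FPKM in NMN oocytes, 7.43 ± 1.71 FPKM in aged oocytes and 25.6 ± 3.09 FPKM in young oocytes. In Mrpl27, Mrpl39, Mrps28 and Mrps33 the highest point is aged replicate 2.

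No member passed between NMN and aged oocytes, and 4 of 53 had an unadjusted p under 0.05 (7.55%, against 11.3% of all tested genes). Across all tested genes, 0.218% passed by limma in this comparison (20 of 9168), 0.12% higher and 0.0982% lower in NMN oocytes. Of the 53 members, 18 had a positive difference (34.0%), against 53.2% of all tested genes, and the median difference was −0.16, against 0.02 over all tested genes. Without aged replicate 2, the median was −0.02, and 23 of 52 members had a positive difference. All NMN values were above all aged values in Mrpl44, Mrpl9 and Mrps5 (5.66%, against 9.09% of all tested genes). All NMN values were below all aged values in Mrpl27, Mrpl42 and Mrps27 (5.66%, against 6.51% of all tested genes).

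Mrpl27 had the smallest p-value between NMN and aged oocytes, with a difference of −1.06 ± 0.27 (SE, adjusted p = 0.177 by limma). The difference of Mrpl9 was 0.74 ± 0.24 (SE, adjusted p = 0.289 by limma), with all 3 NMN libraries above all 3 aged libraries. That of Mrpl44 was 0.57 ± 0.23 (SE, adjusted p = 0.392 by limma), and 0.31 without aged replicate 2. For Mrps28, whose groups overlapped, the difference was −0.84 ± 0.36 (SE, adjusted p = 0.422 by limma), and −0.49 without aged replicate 2.

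Mrpl42 and Mrps31 followed, a mitochondria-specific protein of each subunit. Mrpl42 had 0.904, 0.596 and 0.854 FPKM in the NMN libraries, 1.08, 1.92 and 1.24 FPKM in the aged libraries and 1.09, 0.515 and 0.705 FPKM in the young libraries, all NMN values being below all aged values and the young values spanning both. Its difference between NMN and aged oocytes was −0.41 ± 0.20 (SE, adjusted p = 0.466 by limma). Mrps31 had 8.71, 4.02 and 5.29 FPKM in the NMN libraries, 6.35, 15.7 and 8.66 FPKM in the aged libraries and 5.76, 4.77 and 2.84 FPKM in the young libraries, with overlap between the NMN libraries and each of the other groups. Its difference between NMN and aged oocytes was −0.64 ± 0.32 (SE, adjusted p = 0.484 by limma), and −0.38 without aged replicate 2.

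No member passed between NMN and young oocytes, and 3 of 53 had an unadjusted p under 0.05 (5.66%, against 8.12% of all tested genes). Across all tested genes, 0.0764% passed by limma (7 of 9168), 0.0654% higher and 0.0109% lower in NMN oocytes, and 0 genes did with the replicate number as a block. NMN and young libraries of the same number deviated together across genes, so the block is given here. The block was fitted to all 9 libraries. It therefore also tied the aged libraries by number, which were not treated as pairs, and is not a paired test of NMN and young libraries alone. The block left the members at 0 calls. The median difference of the members was 0.13, against −0.00 over all tested genes, and 32 of 53 were positive (60.4%), against 49.8%. Without NMN replicate 1 the members' median was −0.03. All NMN values were above all young values in Mrpl35, Mrpl39, Mrpl44, Mrps33 and Mrps5 (9.43%, against 9.58% of all tested genes). All NMN values were below all young values in Mrpl9 alone (1.89%, against 6.99% of all tested genes).

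Mrpl9 again had the smallest p-value, with a difference between NMN and young oocytes of −0.99 ± 0.24 (SE, adjusted p = 0.249 by limma, 0.327 with the block). Both comparisons use the same young libraries. Mrpl39 differed by 0.53 ± 0.24 (SE, adjusted p = 0.614 by limma), Mrps36 by 0.68 ± 0.33 (adjusted p = 0.637) and Mrps33 by 0.56 ± 0.28 (adjusted p = 0.646). NMN replicate 1 was the highest NMN library of Mrps36 and of Mrps33, and without it the difference was 0.31 for Mrps36 and 0.28 for Mrps33. Mrpl1, whose bacterial homologue forms the stalk beside the exit site of transfer RNA, had 1.37, 1.23 and 1.94 FPKM in the NMN libraries, 2.31, 1.57 and 2.0 FPKM in the aged libraries and 1.81, 2.49 and 3.06 FPKM in the young libraries, and its difference between NMN and young oocytes was −0.49 ± 0.22 (SE, adjusted p = 0.614 by limma). NMN replicate 3 of Mrpl1 was above young replicate 1, so the groups overlapped. Mrps9, a homologue of bacterial S9, had 11.2, 10.7 and 6.71 FPKM in the NMN libraries, 6.32, 9.96 and 7.91 FPKM in the aged libraries and 6.41, 6.87 and 6.76 FPKM in the young libraries. NMN replicates 1 and 2 of Mrps9 were high and NMN replicate 3 was at the level of the young libraries, with a difference of 0.38 ± 0.22 (SE, adjusted p = 0.699 by limma), 0.60 without NMN replicate 3 and 0.28 without NMN replicate 1.

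In the summed level of all 76 members the 3 groups overlapped. It was 636, 430.0 and 529 FPKM in the NMN libraries, 474, 677 and 468 FPKM in the aged libraries and 529, 484 and 439 FPKM in the young libraries. The means were 531 ± 103 FPKM in NMN oocytes, 539.8 ± 119 FPKM in aged oocytes and 484 ± 45.2 FPKM in young oocytes (SD, n = 3 each), and aged replicate 2 and NMN replicate 1 were the highest libraries. A two-sided exact permutation test gave p = 0.7 for aged against young oocytes, p = 1 for NMN against aged oocytes and p = 0.7 for NMN against young oocytes. With 3 libraries against 3 this test cannot give a p below 0.1, so it could not have passed 0.05 in any of these comparisons. The difference of the means, aged minus young, was 55.9 FPKM with all libraries and −12.7 FPKM without aged replicate 2.

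Aged and young libraries did not overlap in the summed level of the small subunit, whereas they did in that of the large subunit. Genes of the large subunit summed to 454, 319.7 and 404 FPKM in the NMN libraries, 344, 449 and 336 FPKM in the aged libraries and 404, 367 and 343 FPKM in the young libraries, and the groups overlapped. Genes of the small subunit summed to 176, 109 and 122 FPKM in the NMN libraries, 127, 222 and 129 FPKM in the aged libraries and 123, 115 and 95.5 FPKM in the young libraries. Every aged library was above every young library for the small subunit, with means of 136 ± 35.6 FPKM in NMN oocytes, 159 ± 54.5 FPKM in aged oocytes and 111 ± 14.3 FPKM in young oocytes (SD, n = 3 each). The exact permutation test of the small subunit sum gave p = 0.1 for aged against young oocytes, the smallest it can give, p = 0.5 for NMN against aged oocytes and p = 0.5 for NMN against young oocytes. The difference of the small subunit sum, aged minus young, was 48.2 FPKM with all libraries and 16.8 FPKM without aged replicate 2. Mrps28 and Mrps33 had the largest differences of means in this sum. The aged and young means were 22.5 and 7.50 FPKM for Mrps28 and 21.9 and 10.5 FPKM for Mrps33. The 12 oocyte markers also summed higher in every aged library than in every young library, with means of 16197 FPKM in NMN oocytes, 17323 FPKM in aged oocytes and 13995 FPKM in young oocytes (exact permutation p = 0.1 for aged against young oocytes), and their part in the small subunit sum was not tested. For the large subunit sum the exact permutation test gave p = 0.9 for aged against young oocytes, p = 0.9 for NMN against aged oocytes and p = 0.7 for NMN against young oocytes.

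The ratio of the large to the small subunit sum was 2.58, 2.94 and 3.32 in the NMN libraries, 2.70, 2.02 and 2.61 in the aged libraries and 3.28, 3.20 and 3.59 in the young libraries. All aged ratios were below all young ratios, with aged replicate 2 the lowest, and the NMN ratios overlapped both groups. The means were 2.95 ± 0.371 in NMN oocytes, 2.44 ± 0.369 in aged oocytes and 3.35 ± 0.203 in young oocytes (SD, n = 3 each). The ratio differed by −0.91 between aged and young oocytes (two-sided exact permutation p = 0.1, the smallest possible), by 0.50 between NMN and aged oocytes (p = 0.3) and by −0.41 between NMN and young oocytes (p = 0.3). Without aged replicate 2 the NMN and aged oocytes differed by 0.29, and without NMN replicate 1 the NMN and young oocytes differed by −0.23. As pairs of the same number, the NMN library was below the young library in 3 of 3 pairs, for which the exact paired permutation test gave p = 0.25, the smallest it can give. When any 1 library was left out, the difference between aged and young oocytes stayed between −1.04 and −0.70. The 4 most abundant members all belong to the large subunit. Without them the ratio was 1.49, 1.56 and 1.80 in NMN libraries, 1.58, 1.34 and 1.57 in aged libraries and 1.87, 1.79 and 1.84 in young libraries. The aged ratios were then again below the young ones, with a difference of −0.34.

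**Figure D4:**
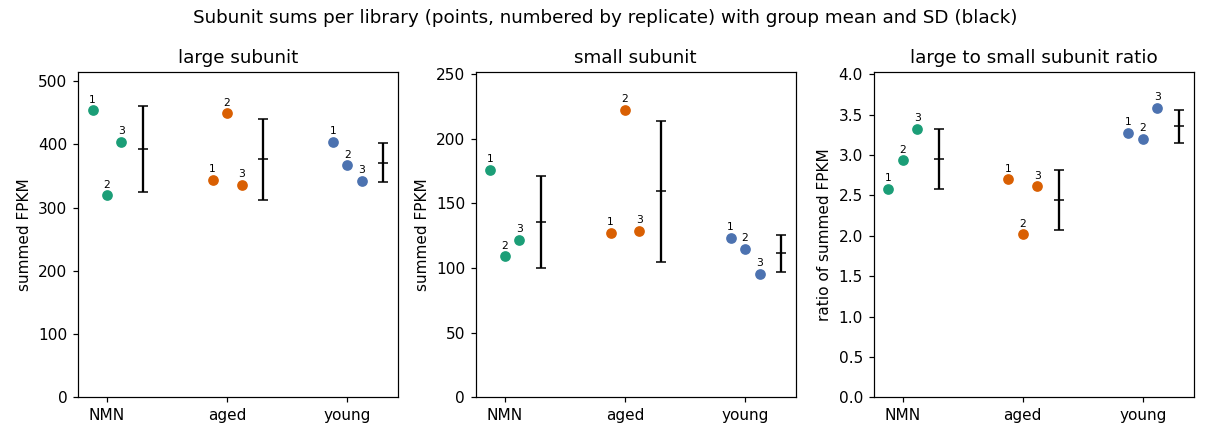
Summed FPKM of large subunit genes (left) and small subunit genes (middle) and the ratio of these sums (right) in each library, with replicate numbers beside the points and the group mean and SD in black (n = 3). Ratios were 2.02 to 2.70 in aged libraries, below the 3.20 to 3.59 of the young libraries, and aged replicate 2 has the largest small subunit sum, at 222 FPKM.

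Genes whose products work with the mitochondrial ribosome showed few differences that passed. Of the 5 mitochondrial ribosomal protein genes with other symbols, all were tested and none passed in any comparison. Dap3, a GTP-binding protein of the small subunit, had 23.4, 22.8 and 19.1 FPKM in the NMN libraries, 17.9, 16.0 and 14.9 FPKM in the aged libraries and 21.3, 19.2 and 18.6 FPKM in the young libraries. All NMN values of Dap3 were above all aged values, with a difference of 0.40 ± 0.18 (SE) and an adjusted p of 0.439 by limma. Chchd1, another small subunit protein, had 3.73, 2.83 and 1.60 FPKM in the NMN libraries, 2.10, 11.2 and 2.97 FPKM in the aged libraries and 1.45, 1.14 and 1.14 FPKM in the young libraries, with aged replicate 2 far above the rest. Its difference between aged and young oocytes was 1.20 ± 0.41 (SE), with an adjusted p of 0.161 by limma, and 0.66 without aged replicate 2.

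Of 25 genes for assembly of the ribosome, 16 were tested and none passed in any comparison. Fastkd2, which binds the large ribosomal RNA of mitochondria, had 1.85, 3.41 and 3.16 FPKM in the NMN libraries, 1.93, 1.15 and 1.43 FPKM in the aged libraries and 3.25, 4.44 and 4.94 FPKM in the young libraries. Its aged values were below its young values, with a difference of −1.10 ± 0.25 (SE) and an adjusted p of 0.0578 by limma. Rpusd4, a pseudouridine synthase of the large ribosomal RNA, had 4.49, 4.06 and 3.54 FPKM in the NMN libraries, 27.7, 4.50 and 17.5 FPKM in the aged libraries and 3.89, 3.87 and 4.83 FPKM in the young libraries. Aged replicates 1 and 3 of Rpusd4 were high and aged replicate 2 was at the level of the other groups. Its difference between NMN and aged oocytes was −1.51 ± 0.52 (SE), with an adjusted p of 0.315 by limma, −2.26 (adjusted p = 0.00850) without aged replicate 2 and −0.96 (adjusted p = 0.494) without aged replicate 1.

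Of 17 mitochondrial translation factors, 16 were in the table and 11 were tested, and 1 passed, lower in aged than in young oocytes. Of all tested genes, 0.916% passed as lower in this comparison. The factor that passed was Mtif3, the initiation factor that keeps the subunits apart until a message is bound, with 1.36, 2.59 and 2.17 FPKM in the NMN libraries, 0.946, 0.911 and 0.925 FPKM in the aged libraries and 3.53, 4.43 and 2.22 FPKM in the young libraries. All aged values of Mtif3 were below the 6 others and under 1 FPKM, so the gene entered the test through the NMN and young groups. Its difference between aged and young oocytes was −1.20 ± 0.24 (SE), with an adjusted p of 0.0377 by limma. The adjusted p was 0.0350 to 0.147 when any 1 library was left out, and it was under 0.05 in 2 of these 9 fits. It was 0.125 without the filter on low values, 0.0687 with the replicate number as a block and 0.0553 in a fit of the 6 aged and young libraries. None of the 11 passed between NMN and aged oocytes or between NMN and young oocytes, and Mtif3 differed by 0.64 ± 0.24 (SE) between NMN and aged oocytes (adjusted p = 0.377 by limma).

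Of 20 genes for charging mitochondrial transfer RNA, 6 were tested and none passed in any comparison. Fars2, which charges phenylalanine, had 11.8, 9.14 and 10.8 FPKM in the NMN libraries, 11.4, 12 and 11.3 FPKM in the aged libraries and 8.21, 7.03 and 8.25 FPKM in the young libraries, with all aged values above all young ones (adjusted p = 0.182 by limma). Of 15 genes for mitochondrial transcription and RNA processing, 14 were in the table and 10 were tested, and none passed. Trmt10c, a subunit of mitochondrial ribonuclease P, had 5.11, 5.04 and 6.10 FPKM in the NMN libraries, 29.7, 6.08 and 18.6 FPKM in the aged libraries and 7.37, 8.66 and 6.44 FPKM in the young libraries, where aged replicates 1 and 3 were high as for Rpusd4. Its difference between NMN and aged oocytes was −1.34 ± 0.47 (SE, adjusted p = 0.331 by limma), −2.0 (adjusted p = 0.0122) without aged replicate 2 and −0.83 (adjusted p = 0.50) without aged replicate 1.

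The messages that this ribosome translates are made inside the mitochondrion. The 12 mitochondrially encoded mRNAs in the table summed to 3721, 4536 and 3997 FPKM in the NMN libraries, 2848, 4813 and 2630.0 FPKM in the aged libraries and 5126, 5346 and 5977 FPKM in the young libraries. Every NMN and every aged library was below every young library. Aged replicates 1 and 3 were also below every NMN library, whereas aged replicate 2 was above every NMN library. The exact permutation test of that sum gave p = 0.1 for aged against young oocytes and for NMN against young oocytes, the smallest possible, and p = 0.4 for NMN against aged oocytes. Of the 10 that were tested, mt-Atp6 and mt-Nd1 passed, both lower in aged than in young oocytes. Of all tested genes, 0.916% passed as lower there. The 2 mitochondrial ribosomal RNAs summed to 1896, 1608 and 1517 FPKM in the NMN libraries, 1125, 3155 and 1022 FPKM in the aged libraries and 1591, 1753 and 2083 FPKM in the young libraries (exact permutation p = 1 for aged against young oocytes). The aged group overlapped the others only through aged replicate 2, the highest library. Aged replicates 1 and 3 were below every NMN and every young library. mt-Atp6, a subunit of ATP synthase, had 67.7, 74.8 and 72.4 FPKM in the NMN libraries, 23.6, 44.4 and 22.0 FPKM in the aged libraries and 77.5, 90.2 and 93.1 FPKM in the young libraries, a difference of −1.64 ± 0.22 (SE) between aged and young oocytes (adjusted p = 0.00769 by limma). Its adjusted p was 0.0515 without young replicate 2 and 0.0565 without young replicate 3. The 3 groups of mt-Atp6 did not overlap, and between NMN and aged oocytes it differed by 1.31 ± 0.22 (SE, adjusted p = 0.0612 by limma), or by 1.54 (adjusted p = 0.00879) without aged replicate 2. mt-Nd1, a subunit of respiratory complex I, had 688, 874 and 831 FPKM in the NMN libraries, 627, 802 and 509 FPKM in the aged libraries and 1206, 1268 and 1266 FPKM in the young libraries and a difference of −1.04 ± 0.19 (SE) between aged and young oocytes (adjusted p = 0.0265 by limma), which was above 0.05 in 5 of the 9 fits that leave out 1 library, at 0.0857 without the filter on low values and at 0.0621 with the replicate block.

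Some members share sequence with other genes, which the counting may have split. The exons of 22 members overlap a gene of the table, and for 19 of these the partner is on the opposite strand. The protocol does not mark strand, so reads from overlapping genes cannot be told apart. Mrps11 and Mrpl46 overlap each other, and both had groups that overlapped in every comparison. The pseudogenes of Mrpl23, Mrps36 and Mrpl48 were listed at up to 4.25 FPKM, the highest being Mrpl48-ps in aged replicate 2, so the values of those 3 members are uncertain.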

How the data were processed

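Messenger RNA of mouse oocytes was measured in 9 libraries, which were grouped by their titles. The deposited values are FPKM in 1 table of 22526 genes by the authors. Per the submitters' processing notes, Bowtie2 2.2.5, RSEM and the build mm9 were used. The role of each tool, the annotation and any filter are not given in the sources used here. The table's name announces raw counts, but its values are fractional, so limma replaced the count test foreseen. Symbols came from GENCODE M21 (22487 identifiers, 99.8%). Depth came from low values of 2659 genes with 1 transcript, where FPKM times length fell within 0.02 reads of a whole read in 96.2 to 97.8% of cases.

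FPKM were scaled by a trimmed mean of ratios (30% of genes trimmed on the ratio and 5% on the level). A filter kept the 9168 genes that reached 1 FPKM in 3 or more libraries. Group means of all 9 libraries were fitted together on log2(FPKM + 1) with limma 3.58.1 in R 4.3.3 (trended, robust eBayes). Adjustment was by Benjamini-Hochberg across these genes, with a threshold of 0.05. Sums and ratios used FPKM as deposited and a two-sided exact permutation test. The steps were tested on simulated data. The members, lists and tests were chosen with earlier results of these data known. Named members were, per comparison, the 6 with the smallest p and those that passed, the 6 highest by level, and members with a known role. Others were named because their groups did not overlap or a left-out library changed their call, after their values were seen. Mrpl53 and Mrps34 were not used here.

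Replicate numbers are shared by the groups, and the labels do not tie them to animals or days. Whether libraries were treated as pairs was therefore decided from the values alone, and libraries of different numbers were not compared. After subtraction of the group means, NMN and young libraries of the same number correlated at 0.497, 0.119 and 0.142, all over 0.1, and were treated as pairs. Aged and young libraries correlated at −0.339, −0.267 and 0.314, and NMN and aged libraries at −0.372, −0.359 and 0.199, and were not. Alternatives were a pseudocount of 0.1, no filter, a filter at 5 FPKM, values as deposited, median-of-ratios scaling, the replicate block, a fit of the 6 libraries compared and leaving out each library. Promoter windows came from RefSeq (GRCm38.p6).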

Additional observations from a re-analysis of the deposited data

How the results depend on the processing

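Mrpl9 was lower in aged than in young oocytes under every alternative run, and its adjusted p by limma lay between 0.00779 and 0.0516 over them. No member passed between NMN and aged or between NMN and young oocytes under any alternative, and leaving out 1 library gave 0 to 2 members that passed between aged and young oocytes. The count of all genes that passed moved more, and the cause was not tested. Between aged and young oocytes it was 31 without the filter, 132 in the fit of the 6 libraries and 20 to 210 without 1 library, against 200. Between NMN and aged oocytes it was 9 without the filter, 7 with the filter at 5 FPKM, 6 in the fit of the 6 libraries and 5 to 26 without 1 library, against 20. Between NMN and young oocytes it was 0 without the filter, 1 with the filter at 5 FPKM, 3 with values as deposited, 17 in the fit of the 6 libraries and 1 to 14 without 1 library, against 7. The replicate block gave 73 genes between aged and young oocytes, where numbers were not treated as pairs, and 0 between NMN and young oocytes. It also ended the calls of Mtif3 and mt-Nd1 and no other named call.

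The difference in the members' summed FPKM changed sign with single libraries. Without 1 library it was −12.7 to 91.6 between aged and young oocytes, with −12.7 without aged replicate 2. Between NMN and aged oocytes it was −60.5 to 60.1, with 42.2 without NMN replicate 2 and 60.1 without aged replicate 2. Between NMN and young oocytes it was −4.65 to 98.1, with −4.65 without NMN replicate 1. The members' median log2 difference was then 0.11 to 0.38 between aged and young oocytes, −0.24 to −0.02 between NMN and aged oocytes and −0.03 to 0.22 between NMN and young oocytes. In the subunit sums, whose left-out libraries were examined after the data were seen, the large subunit difference was −31.6 to 25.1 between aged and young oocytes, with −31.6 without aged replicate 2 and −9.46 without young replicate 3. It was −14.3 to 52.9 between NMN and aged oocytes, with −14.3 without NMN replicate 1 and −3.78 without aged replicate 3, and −9.32 to 57.9 between NMN and young oocytes, with −9.32 without NMN replicate 1. The small subunit difference between NMN and aged oocytes was −44.1 to 7.53, with 7.53 without aged replicate 2, against −23.9. The 23 members that reached 1 FPKM in fewer than 3 libraries were left untested by the filter. With 3 libraries per group, every test is limited.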
